A study of Zea mays with 4 samples.

Results

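Beta-expansins were followed on Affymetrix maize arrays through the 10 probe sets whose only platform gene is listed under the name expB followed by a number. They are 10 of 17555 maize probe sets and stand for 7 of 1108 named genes (expB3, expB4, expB5, expB6, expB7, expB8 and EXPB9). The RefSeq maize annotation lists 11 beta-expansin genes under such a name. The rule reads names alone, although the family was picked with earlier results of these data known. The arrays carried total RNA of the maize lines F98908 (2 arrays) and Cm489 (2 arrays), in a study of maize cell wall diversity. Plants of both lines were 21 days old with 7 leaves, and grew in potting compost at 50% humidity, with 16 h of light and 8 h of dark. The labels name no treatment or genotype beyond the line, and describe the sampled material only as aerial. Both F98908 arrays carry the same extract label (213 ug), whereas the extract labels of the Cm489 arrays differ (177 and 170 ug). No label ties the arrays to separate plants, so each p-value reflects no more than array-to-array spread, part or all of which may be technical.

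Beta-expansins are small secreted proteins that loosen the cell wall at acid pH without cutting its polymers, which lets a growing cell extend. The family is large in grasses, whose primary walls are rich in glucuronoarabinoxylan, and its vegetative members are known from growing leaves, stems and roots. A separate branch, to which EXPB9 belongs, is made in pollen and includes the group 1 pollen allergens. Individual roles of expB3 to expB8 are not set out here, because the vegetative members are best known as a family. In the RefSeq annotation expB5 and expB8 are close neighbours with 1 protein-coding gene between them, and expB7 and expB6 have 2 between them.

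The deposited values are log2 levels, 1 for each probe set and array. Array medians ran from 6.67 to 6.69, and the brightest of 17 control probe sets made for artificial tag sequences reached 2.29 to 2.33. A probe set was tested if it passed log2 4 on at least 2 arrays, which 11262 did. Over these, the median absolute difference was 0.131 between the F98908 arrays and 0.207 between the Cm489 arrays, against 0.282 to 0.351 between arrays of different lines. Of leaf markers, rbcS (the Rubisco small subunit) lay between 11.53 and 12.28 on the 4 arrays, while ME1, the NADP-malic enzyme of the bundle sheath, lay under log2 4 on all 4, and pep1, the C4 carboxylase of the mesophyll, passed it only on Cm489 array 1 (5.44). The mesophyll genes pdk1 and mdh6 were bright on all 4 arrays (8.88 to 9.93). The list also holds PDK1, a gene other than pdk1 that matched by its symbol alone and may have another function (8.32 to 8.50). Both pollen markers, EXPB9 and prf1, lay under log2 4 on all 4 arrays. In whole tissue of this kind, fewer cells of a type and less RNA per cell cannot be told apart. Whether the probes match the sequences of both lines equally well was not tested, so differences are differences in probe set signal.

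Beta-expansin signals were in part higher in F98908 than in Cm489. Of the 7 probe sets bright enough to be tested, which stand for 6 genes, 3 rose in F98908 (expB5, expB3 and 1 probe set of expB8), 0 fell and 4 did not pass (limma, adjusted p under 0.05). Over all tested probe sets 7.27% were called higher and 8.02% lower. At an unadjusted p under 0.05 the members' counts were 5 higher and 1 lower, the last being expB4, where 14.3% and 18.1% of all tested probe sets were so. The median difference of the 7 was 1.87 log2 units, against -0.03 over all tested probe sets. Both F98908 arrays lay above both Cm489 arrays in 5 of the 7 and below them in 1, where 28.5% and 35.4% of all tested probe sets did so. The call count was 1 (expB5) without F98908 array 1, without F98908 array 2, with both F98908 arrays taken as 1 sample, and with dim probe sets left in. With values under log2 4 set to 4, which was tried after seeing the data, it was 1 (expB3) without either Cm489 array and 0 without either F98908 array. In the last pair of fits limma called 0 of all 11262 probe sets, with 2151 and 2224 at an unadjusted p under 0.05, among them 3 beta-expansins higher in each.

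**Figure D1:**
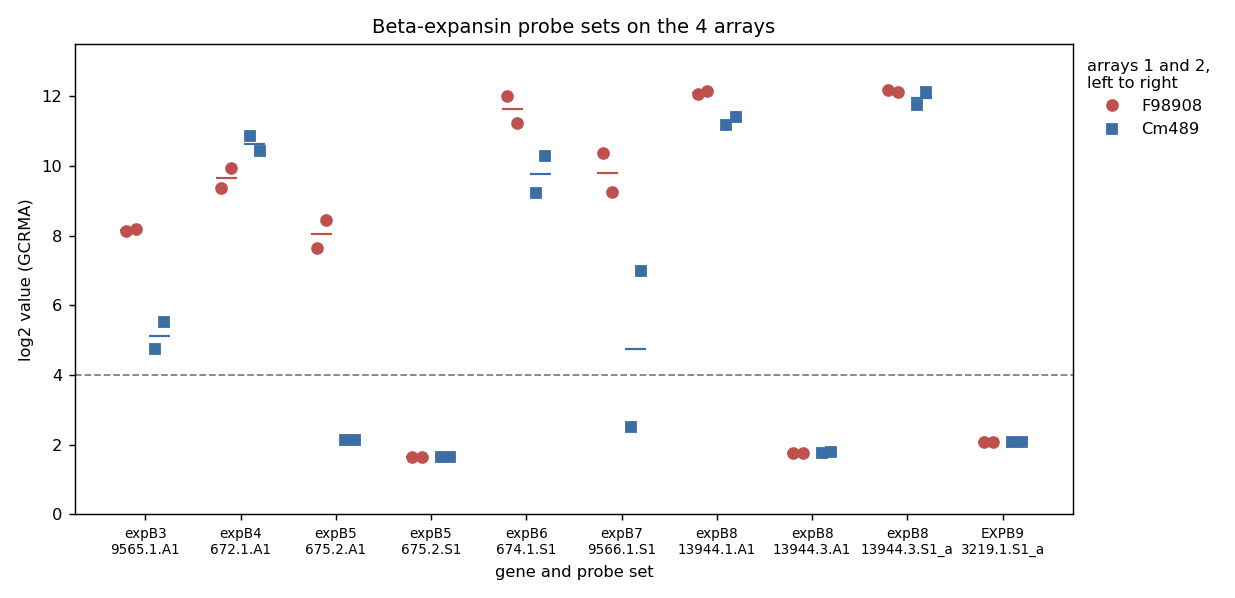
Log2 value (vertical axis) of each of the 10 beta-expansin probe sets on the F98908 arrays (circles, left) and Cm489 arrays (squares, right), with short lines at the line means (n = 2 arrays each) and a dashed line at log2 4, the brightness needed for testing. The expB5 probe set 675.2.A1 is bright in F98908 alone, expB7 has Cm489 arrays at 2.51 and 6.98, and 3 probe sets stay under the dashed line on all 4 arrays.

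The smallest p in the family was that of expB5 (probe set Zm.675.2.A1_at), which was bright in F98908 and at background in Cm489. It read 7.64 and 8.45 on the F98908 arrays, against 2.14 and 2.15 on the Cm489 arrays. Both Cm489 values lie within the range of the tag controls, and the nearest arrays of the lines lay at least 3.64 log2 units apart, taking log2 4 as the lowest measurable level. The signal of this probe set was at least 16.5-fold higher in F98908 on the same basis (limma adjusted p = 0.00261). The measured means were 8.05 ± 0.57 in F98908 and 2.14 ± 0.01 in Cm489 (SD, n = 2 arrays per line). Whether its probes match the Cm489 sequence was not tested. The probe set entered the test through its F98908 values alone. Raising dim values to log2 4 gave an adjusted p of 0.00732, and the call was then lost with any single array left out (adjusted p between 0.0582 and 0.101). The other expB5 probe set, Zm.675.2.S1_at, has the same sequence record as its target but the opposite orientation letter in its name, and it read 1.64 on all 4 arrays.

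The gene expB3 (Zm.9565.1.A1_at) was measurable in both lines. It read 8.13 and 8.19 in F98908, against 4.75 and 5.52 in Cm489. The F98908 arrays lay 0.06 apart and the Cm489 arrays 0.77 apart, and the lines did not overlap. The signal was 8.16-fold higher in F98908 (log2 difference 3.03 ± 0.30 SE, 95% interval 2.19 to 3.87, limma adjusted p = 0.0118). The call was lost without F98908 array 1 (adjusted p = 0.105), without F98908 array 2 (0.104), with the F98908 arrays as 1 sample (0.109) and without the brightness filter (0.0543).

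The gene expB8 was bright in both lines, and its probe sets differed. On Zm.13944.1.A1_at it read 12.07 and 12.14 in F98908, against 11.17 and 11.41 in Cm489, so that the lines did not overlap. This is a 1.76-fold rise in F98908 (0.81 ± 0.13 SE, 95% interval 0.44 to 1.19, limma adjusted p = 0.0354). The call did not hold with any single array left out (adjusted p between 0.0554 and 0.217) or with the F98908 arrays as 1 sample (0.214).

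On Zm.13944.3.S1_a_at, a probe set of the type whose probes are shared by several transcripts, expB8 read 12.18 and 12.11 in F98908, against 11.75 and 12.13 in Cm489. Here the lines overlapped, because Cm489 array 2 lay between the F98908 arrays. The difference was 0.20 ± 0.17 SE with a 95% interval of -0.28 to 0.69 (limma adjusted p = 0.47). The first probe set minus the second came to -0.12 and 0.03 on the F98908 arrays and -0.58 and -0.72 on the Cm489 arrays, a difference of 0.61 between the lines (exact permutation test, two-sided, p = 0.333, the smallest that 2 against 2 arrays allow). Another probe set listed for the gene, Zm.13944.3.A1_at, read 1.77 to 1.78 on all 4 arrays. Its target is another sequence record, and the match to expB8 rests on the platform annotation alone.

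The gene expB7 (Zm.9566.1.S1_at) was well above log2 4 in F98908 and had very unequal Cm489 arrays. It read 10.36 and 9.24 in F98908, against 2.51 and 6.98 in Cm489. Both F98908 arrays lay above both Cm489 arrays, the nearest by 2.26 log2 units, while the Cm489 arrays differed from each other by at least 2.98, since array 1 lies under the lowest measurable level. The measured difference of 5.05 ± 1.68 SE did not pass (95% interval 0.29 to 9.81, limma adjusted p = 0.139), nor did that of 4.31 with dim values raised to log2 4 (adjusted p = 0.0959). It was 2.82 without Cm489 array 1 (adjusted p = 0.103) and at least 5.80 without Cm489 array 2. The second passed on the deposited values (adjusted p = 0.039) but not with dim values raised to log2 4 (0.0992). At that floor the differences of expB7 and expB5 were 4.31 and 4.05, so these genes have no settled order.

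Its chromosomal neighbour expB6 (Zm.674.1.S1_at) kept the same order of arrays at a smaller scale. It read 12.02 and 11.24 in F98908, against 9.23 and 10.29 in Cm489. The lines did not overlap, with a gap of 0.95, but the Cm489 arrays lay 1.06 apart and the F98908 arrays 0.78 apart. The difference of 1.87 ± 0.49 SE did not pass (95% interval 0.48 to 3.26, limma adjusted p = 0.0892).

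The gene expB4 (Zm.672.1.A1_at) was the only tested member with a lower mean in F98908. It read 9.36 and 9.95 in F98908, against 10.86 and 10.42 in Cm489. Both F98908 arrays lay below both Cm489 arrays, by 0.47 at the nearest. The difference of -0.99 ± 0.28 SE did not pass (95% interval -1.80 to -0.18, limma adjusted p = 0.107), and was -0.69 to -1.29 with single arrays left out.

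The pollen-type member EXPB9 (Zm.3219.1.S1_a_at) read 2.07 to 2.08 in F98908 and 2.07 to 2.09 in Cm489, within the range of the tag controls. It was not tested, and at this level no difference between the lines could be seen. The other beta-expansin genes of the annotation (EXPB1, expB2, EXPB10 and EXPB11) have no probe set named for them and were not analysed here.

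**Figure D2:**
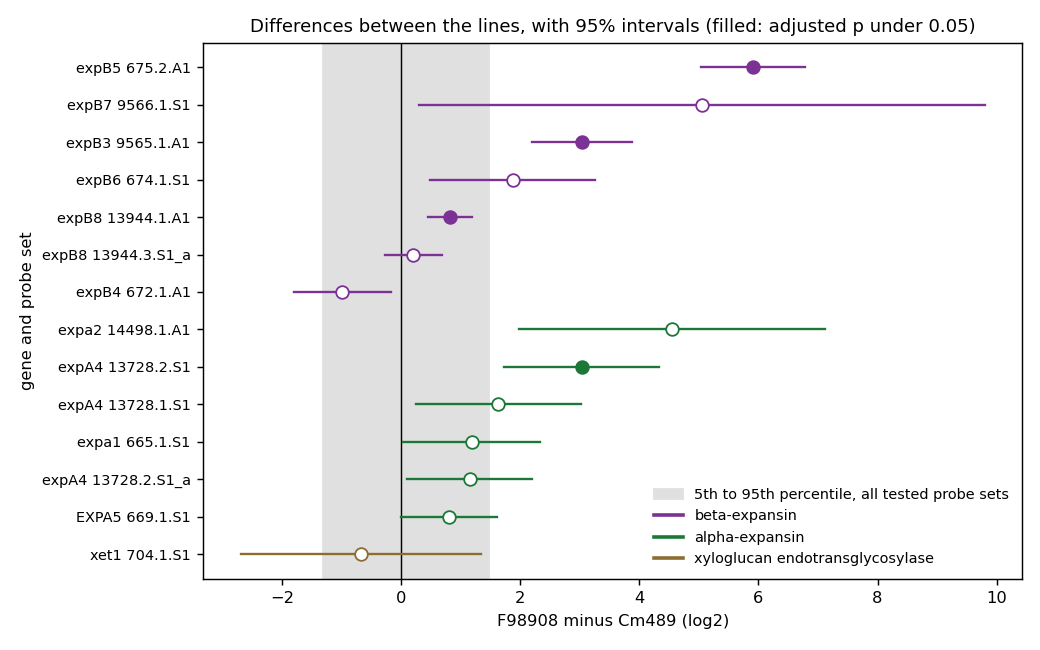
F98908 minus Cm489 in log2 units (horizontal axis) for each tested probe set of beta-expansins, alpha-expansins and xet1, with 95% intervals from limma (n = 2 arrays per line) and filled points where the adjusted p was under 0.05. The grey band spans the 5th to 95th percentile of all 11262 tested probe sets (-1.32 to 1.47), and expB5, expB7, expB3 and expB6 lie to its right, as do the alpha-expansin expa2 and the expA4 probe sets at 3.03 and 1.63. Differences against values under log2 4 (expB5, expB7 and expa2) are drawn as measured.

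The arrays within a line also differed in beta-expansin levels, with expB7 the farthest apart in both lines. In Cm489, expB7 lay at least 2.98 lower on array 1 than on array 2, and 0.337% of tested probe sets lay as far apart between these arrays when all values under log2 4 were set to 4. On the same basis array 1 minus array 2 was -1.06 for expB6 (3.92% of probe sets at least as far apart), -0.77 for expB3 (7.9%) and 0.44 for expB4 (21.4%). In F98908, array 1 minus array 2 was 1.12 for expB7 (1.39%), -0.81 for expB5 (3.19%), 0.78 for expB6 (3.51%) and -0.59 for expB4 (6.54%). For expB7 and expB6 the array with the higher value was thus array 1 in F98908 and array 2 in Cm489, and for expB4 it was the reverse. The labels do not say whether replicate numbers tie an array of one line to an array of the other.

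Marker genes of young tissue also differed between the arrays of a line. Of 12 genes listed for meristem and young leaf (KNOX, YABBY and outer cell layer homeobox genes), 10 were tested, and ocl2 and yab9 lay under log2 4 on all 4 arrays. In F98908 array 1 minus array 2 had a median of -0.60 over these 10 genes, with 8 of them lower on array 1. In Cm489 the median was 2.44 as measured and 1.78 with values under log2 4 set to 4. There 7 of them, all YABBY or outer cell layer genes, were higher on array 1, where expB7 and expB6 were lower. The KNOX genes kn1, knox7 and lg3 were also lower on Cm489 array 1 (-0.74, -0.19 and -1.30). The summed level of the list was 11.60 and 11.76 on the F98908 arrays, against 11.95 and 11.95 on the Cm489 arrays (log2 of the sum). Its largest member was kn1, with 10.62 and 10.65 in F98908, against 10.77 and 11.51 in Cm489. Gene by gene the order was mostly the opposite, since 8 of the 10 tested genes had a higher mean in F98908 (median difference 0.89). Over all tested probe sets 5206 of 11262 did so. For 12 tested genes of DNA replication and cell division the medians were -0.46 in F98908 and 0.65 in Cm489. That list includes cyclotide, which matched by its symbol alone and has another function. Its summed level was 13.72 and 13.98 in F98908, against 14.29 and 13.84 in Cm489. Between the lines 0 of these 10 and 0 of these 12 genes were called in limma, with 0 and 1 (lower) at an unadjusted p under 0.05. Over all tested probe sets 15.3% were called, and 14.3% were higher and 18.1% lower at that unadjusted p. With so few genes, counts of 0 cannot set these lists apart from that background. The part of young tissue in the beta-expansin values was not tested.

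**Figure D3:**
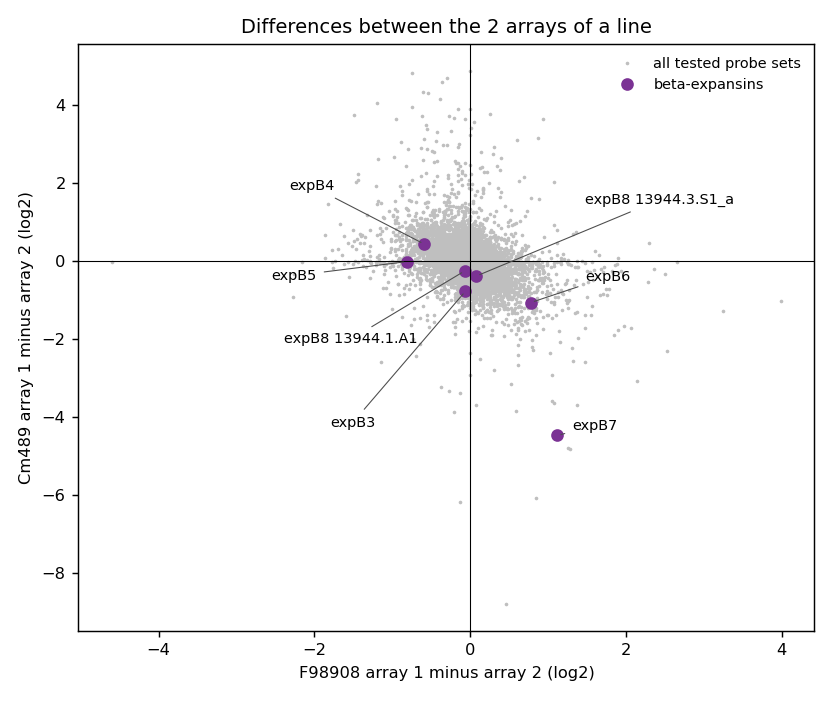
Array 1 minus array 2 in log2 units within F98908 (horizontal axis) and within Cm489 (vertical axis) for all 11262 tested probe sets (grey) and the 7 tested beta-expansin probe sets (purple). The probe set of expB7 lies at 1.12 and a measured -4.47 (at least 2.98 apart in Cm489), below nearly all of the grey points, and expB6 lies on the same side at 0.78 and -1.06.

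Alpha-expansins, the sister family of wall-loosening proteins, had positive differences on all 6 tested probe sets, which stand for 4 genes. Over all tested probe sets 5206 of 11262 differences were positive. Of 5 genes 4 were tested, since expA3 passed log2 4 only on Cm489 array 2 (6.64). With each gene represented by its highest-reading probe set, 0 were called in limma in either direction (median difference 1.40). Over all tested probe sets 7.27% were called higher and 8.02% lower. At an unadjusted p under 0.05 the counts were 3 higher and 0 lower, where 14.3% and 18.1% of all tested probe sets were so. The other probe sets of expA4 include the single alpha-expansin call, on Zm.13728.2.S1_at, which read 7.62 and 7.70 in F98908, against 5.26 and 4.02 in Cm489 (3.03 ± 0.46 SE, adjusted p = 0.0308). That call was lost with the F98908 arrays as 1 sample and without either F98908 array, when the list had 0 calls. The gene expa2 read 8.69 and 8.33 in F98908, against 5.19 and 2.74 in Cm489 (adjusted p = 0.0528, and 0.0191 with dim values raised to log2 4). Its Cm489 arrays also lay apart, but the higher one was array 1, unlike in expB7. With values under log2 4 set to 4 they differed by 1.19 (3.11% of tested probe sets at least as far apart), against 2.98 (0.337%) for expB7. The next smallest p was that of expA4 on Zm.13728.1.S1_at, with 9.64 and 9.49 in F98908, against 8.59 and 7.28 in Cm489 (adjusted p = 0.116). The gene xet1, a xyloglucan endotransglycosylase that cuts and rejoins wall xyloglucan, read 7.54 and 5.97 in F98908, against 6.87 and 8.01 in Cm489, and the lines overlapped (-0.68 ± 0.71 SE, adjusted p = 0.561).

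Other genes of cell growth were called in both directions. Over the lists of proton pumps, aquaporins, cellulose synthases and growth hormone genes, 4 of 36 tested genes rose and 5 fell, or 25.0% in all, where 15.3% of all tested probe sets were called. Expansins act in walls acidified by plasma membrane proton pumps, and of 4 pump genes mha4, a plasma membrane H+-ATPase, rose in F98908 (10.55 and 10.51, against 9.67 and 9.80 in Cm489, 0.80 ± 0.11 SE, adjusted p = 0.0229) while 3 did not pass, among them mha1 (difference 0.74, adjusted p = 0.157). The median difference of the pump list was 0.37. That list is not limited to plasma membrane pumps, since it includes vpp1 and vpp3 (differences -0.00 and -0.23). Of 15 tested aquaporin genes, which carry the water that fills growing cells, 2 rose, 3 fell and 10 did not pass (median -0.56), the 2 with the smallest p being TIP1-2 and pip2b. TIP1-2 averaged 5.57 ± 0.60 in F98908, against 2.50 ± 0.01 in Cm489 (SD, n = 2 arrays each). It counts among the 2 that rose, but entered the test through its F98908 values alone. The rise was no less than 2.97-fold (adjusted p = 0.014), and the call was lost once dim values were raised to log2 4 (adjusted p = 0.0567). The difference of pip2b was -1.85 (adjusted p = 0.0136). Of 12 cellulose synthase genes 2 fell and 10 did not pass (median -0.07), the 2 being CesA-6 (-0.65, adjusted p = 0.0405) and CesA-1 (-0.68, adjusted p = 0.0407). Of 5 tested genes on the growth hormone list 1 rose and 4 did not pass (median -0.26). That list was matched by symbol, and ABP3, counted among the 5 and the 36, may have another function (difference -0.11, not called). The called gene was an1, of gibberellin synthesis (1.47, adjusted p = 0.00969), and abp4 had a difference of -0.49 (adjusted p = 0.114). The pectin and glucan hydrolase genes PG14 and pme1 lay under log2 4 on all 4 arrays.

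Among 970 tested probe sets with 1 gene symbol, the 3 nearest in pattern to each beta-expansin gene were taken by Euclidean distance between log2 values centred on their own mean, over the 4 arrays. These distances are a description over 4 arrays of 2 lines, and use the values as deposited, those under log2 4 included. With such values set to 4, the same 3 were nearest for expB4, expB6 and expB8, against 2 of the 3 for expB3 and expB7 and 1 for expB5. Nearest to expB7 was PR-5, a thaumatin-like defence protein, which read 11.22 and 10.37 in F98908, against 2.90 and 8.99 in Cm489 (distance 1.18). It was followed by the glutathione transferase genes gst6 (2.06) and gst5 (2.53), all 3 with a Cm489 array 1 below array 2. With values under log2 4 set to 4, gst5 (1.27) was nearer to expB7 than PR-5 (1.43). Nearest to expB6 were gst18, another glutathione transferase (0.52), bx1, the first enzyme of benzoxazinoid synthesis (0.53), and LOC542631 (0.66).

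Nearest to expB5 were LOC542088 (distance 1.14), gst16 (1.33) and a probe set of the linker histone gene H1 (1.37). Of these, gst16 was also near background in Cm489, with 6.38 and 7.36 in F98908, against 2.29 and 2.30 in Cm489. LOC542088 lay under log2 4 in Cm489 as well (3.38 and 3.14). With values under log2 4 set to 4, gst16 and H1 were no longer among the nearest, which were gst10 (0.80), LOC542088 (0.81) and gst6 (1.11). Nearest to expB3 was RR6 (0.39), a response regulator by its name, with 6.57 and 6.79 in F98908, against 3.14 and 3.58 in Cm489. The next were hir2 (0.62) and a shared-probe set of EF1-A, an elongation factor of translation (0.64). For expB4 they were crr2 (0.15), PPCK1, a kinase of the C4 carboxylase (0.18), and UMPS, of pyrimidine synthesis (0.23). For expB8, represented by the overlapping probe set, they were the superoxide dismutase gene sod3 (0.05), ubc7 (0.05) and ALDH10A9 (0.08).

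Among the beta-expansin genes themselves distances are given with values under log2 4 set to 4. The nearest pair was then expB3 and expB5 (1.27), followed by expB3 and expB6 (1.32), and the farthest was expB4 and expB7 (5.95). As deposited, expB3 and expB5 lay 2.97 apart. The chromosomal neighbours expB5 and expB8 lay 3.90 apart, one near background in Cm489 and the other bright in both lines. The neighbours expB7 and expB6 lay 2.80 apart, with the same order of arrays but unequal size.

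**Figure D4:**
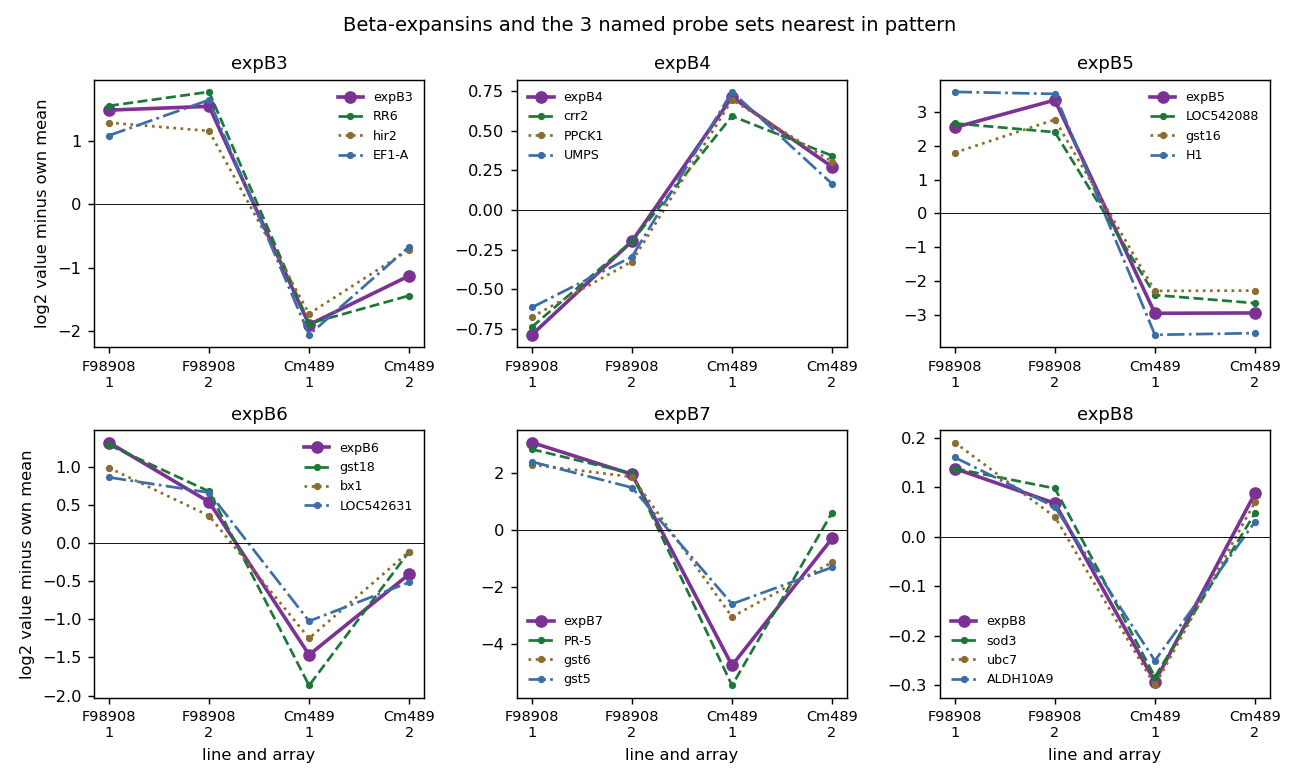
Log2 value minus the probe set's own mean (vertical axis) on the F98908 and Cm489 arrays for each tested beta-expansin gene (thick purple line) and the 3 named probe sets nearest to it by Euclidean distance. The vertical scales differ between panels: expB7 and PR-5 share a low Cm489 array 1, and the expB8 panel spans less than the others.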

How the data were processed

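Per the submitters' processing notes, the authors made the deposited log2 values with GCRMA (of a version not given in the sources consulted), a method that models background by probe sequence, brings all arrays to 1 distribution and gives a single value per probe set. Differences in total output are lost in that step. Raw scans and detection calls were not analysed here, and the small number of arrays limits the precision. Of 17734 probe sets, 179 array controls and reporter sequences were left out. Gene names came from the platform annotation and, through gene numbers, from RefSeq for the B73 reference line (Zm-B73-REFERENCE-NAM-5.0). A single symbol was found for 1452 probe sets, several for 1, which stayed nameless, and none for 16102. Of 1108 named genes 1060 matched RefSeq. Genome positions are left out, because the values come with no stated build.

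The lines were compared as F98908 minus Cm489 in limma 3.58.1 under R 4.3.3, as a two-sided moderated test from lmFit and eBayes without a replicate block (1.79 prior and 2 residual degrees of freedom). Benjamini-Hochberg adjustment ran over all 11262 probe sets above log2 4 on at least 2 arrays, with a threshold of 0.05. The fit was tested on simulated data. The members and gene lists were chosen with earlier results of these data known. Named were every beta-expansin probe set, alpha-expansins and xet1 (those called and the 3 with the smallest p), the 3 nearest probe sets in pattern, and up to 2 genes of each other growth list by p, each gene represented by its highest-reading probe set. The genes expB6 and expB7 are compared as neighbours, and gst16, RR6 and PR-5 given array by array, after their values were seen. Alternatives covered the filter, values under log2 4, the variance trend, array centring, shared-probe types, the F98908 arrays as 1 sample, single arrays left out (also with values under log2 4 set to 4) and the replicate block.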

Additional observations from a re-analysis of the deposited data

How the results depend on the processing

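The probe set of expB5 stayed called in 11 of 15 alternatives that tested it (adjusted p 0.00213 to 0.0342 in these). It lost the call in the other 4, added after seeing the data, which set values under log2 4 to 4 and left out 1 array (differences 3.64 to 4.45, among them 4.05 without either Cm489 array, adjusted p 0.0582 to 0.101). It was not tested with a mean over log2 6. No beta-expansin difference changed sign. Over all probe sets 1722 were called, against 1130 with a mean over log2 6, 418 with F98908 as 1 sample and 780 with the replicate block. With single arrays left out the count ran from 433 to 1079, and with values under log2 4 set to 4 as well it was 0 without either F98908 array, 470 without Cm489 array 1 and 415 without Cm489 array 2. The count of beta-expansin probe sets called higher fell to 1 without a filter and with F98908 as 1 sample, and was 1 to 3 with single arrays left out (0 to 1 with values under log2 4 set to 4 as well, against 0 to 2 for alpha-expansins and xet1). Without a filter, expB3 kept its difference of 3.03 (adjusted p = 0.0543) and expB8 Zm.13944.1.A1_at its 0.81 (0.0738). Both lost the call with F98908 as 1 sample, at 3.03 (0.109) and 0.81 (0.214). With single arrays left out, differences ran from 2.64 to 3.41 for expB3, 0.69 to 0.94 for this expB8 probe set and 2.82 to 7.29 for expB7 as measured (2.82 to 5.80 with values under log2 4 set to 4). Under that floor expB3 lost its call without either F98908 array (3.06 without array 1), and this expB8 probe set without F98908 array 1 (0.85), F98908 array 2 (0.78), Cm489 array 1 (0.69) and Cm489 array 2 (0.94).

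Alpha-expansins and xet1 had 1 probe set called, against 0 without a filter, with F98908 as 1 sample and with the replicate block, 2 with values under log2 4 set to 4 and 2 with a variance trend, and 0 to 3 with single arrays left out. Replicate numbers are shared by the lines, but the labels do not say whether they pair the arrays. Array 1 minus array 2 correlated at -0.365 between the lines over 11262 probe sets (Pearson, or -0.423 by Spearman). The correlation cannot decide the pairing, since arrays may also pair across numbers. Under the replicate block expB8 Zm.13944.1.A1_at lost its call (0.81, adjusted p = 0.107) and 2 beta-expansin probe sets stayed called. The crossed replicate block, chosen after seeing the data, called 1853 probe sets, among them 3 beta-expansins higher and 1 lower, and 2 of the other list. In fits that leave out an array, the lone array is assumed to vary like those of the other line. The cause of these changes was not tested. Values near background have no order, which limits expB5 in Cm489, expB7 on Cm489 array 1 and EXPB9.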

Other observations

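The names of further probe sets carry the cluster number of a beta-expansin probe set, although the tables used here pair no gene with them. They were chosen after their values were seen. In the cluster of expB8, 6 such probe sets exist, of which 3 were tested. None of these had a higher mean in F98908. Zm.13944.2.S1_at fell in F98908, with 8.53 and 8.62, against 9.57 and 9.49 in Cm489 (-0.95 ± 0.10 SE, limma adjusted p = 0.0154). Zm.13944.6.S1_a_at read 11.63 and 11.88 in F98908, against 12.41 and 12.43 in Cm489, and did not pass (-0.67 ± 0.13 SE, adjusted p = 0.0517). Zm.13944.4.A1_a_at read 11.47 and 11.60 in F98908, against 11.77 and 11.69 in Cm489 (adjusted p = 0.315). Both F98908 arrays lay below both Cm489 arrays on all 3, the opposite order to that of the called expB8 probe set Zm.13944.1.A1_at. Over all tested probe sets 35.4% had this order and 8.02% were called lower. The remaining 3 were dim on all 4 arrays.

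In the cluster of EXPB9, whose own probe set was at background, the unnamed probe set Zm.3219.3.S1_at was bright in both lines. It read 12.22 and 12.39 in F98908, against 11.98 and 12.43 in Cm489 (0.10 ± 0.20 SE, adjusted p = 0.769), and the lines overlapped. Whether this transcript belongs to a beta-expansin was not tested.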
